A study of Mus musculus with 2 samples.

Results

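Follicular B cells were examined in single-cell RNA libraries of mouse spleen cells that had been sorted as CD4+FoxP3+ regulatory T (Treg) cells, so these B cells lay outside the intended sort. There were 2 libraries, Foxp3YFP-Cre Kmt2d fl/fl (here fl/fl) and Foxp3YFP-Cre Kmt2d+/+ (here +/+). Each was 1 library made from the pooled cells of 3 mice, and both genotypes carry the Foxp3YFP-Cre allele, which makes Cre recombinase in cells that express Foxp3. The follicular B cells held 1 Foxp3 count in fl/fl and 1 in +/+. The mice's age and sex were not given in the sources used here. A member was a barcode with at least 500 detected genes, at most 10% mitochondrial counts, at least 4 counts of Cd79a and Cd79b together, at most 1 count of Cd3d, Cd3e and Cd3g together, fewer than 20 Jchain counts and at least 1 Fcer2a count. The members were thus chosen by their own Cd79a, Cd79b, Cd3, Jchain and Fcer2a counts. By this rule 723 of the 16424 barcodes past the filters were members, 478 of 8634 in fl/fl and 245 of 7790 in +/+. Those values are given as a description only. With 1 library per genotype no test across replicates could be made, and every interval below covers counting error only.

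Follicular B cells are the mature recirculating B cells of spleen and lymph node. They carry IgM and IgD on their surface, enter the follicle along a gradient sensed by the chemokine receptor CXCR5, and present antigen to T cells. Fcer2a encodes CD23, the low-affinity IgE receptor that separates them from marginal zone B cells, which line the marginal sinus and carry more of the complement receptor CD21 (Cr2), CD1d and CD9, and from the younger transitional B cells. After antigen and T cell help, some follicular B cells enter germinal centres, where they divide and alter their immunoglobulin genes. Kmt2d encodes a histone H3 lysine 4 methyltransferase that acts at enhancers.

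Cd79a encodes the immunoglobulin alpha chain of the B cell receptor, and its promoter is a classic target of the B lineage factor EBF1. It is shown because Cd79a defined the members and Ebf1 was the highest of the 23 listed B lineage transcription factors in them. The 250 bases before the annotated start, from RefSeq on GRCm38.p6, lie on the plus strand at chr7:24897247-24897496, and capitals mark the only match to TCAAGGGA, the core of the EBF1 site described in that promoter, 175 to 168 bases before the start.
Cd79a: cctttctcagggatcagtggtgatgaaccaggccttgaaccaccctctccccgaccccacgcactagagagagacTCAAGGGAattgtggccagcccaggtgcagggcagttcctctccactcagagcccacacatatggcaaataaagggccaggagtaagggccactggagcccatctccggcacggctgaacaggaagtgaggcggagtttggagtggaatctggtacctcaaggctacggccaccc
The motif, searched on both strands, occurred in 267 of 32851 promoters of this length (0.813%). The match is a description of the letters, not a measurement of binding.

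Follicular B cells made up 5.54% of filtered fl/fl barcodes (95% exact Clopper-Pearson interval 5.06 to 6.04) and 3.15% of filtered +/+ barcodes (2.77 to 3.56). The order was the other way among all gated B cells (the same rule without the Fcer2a condition), of which follicular cells were 38.3% of 1248 cells in fl/fl (35.6 to 41.1) and 48.5% of 505 cells in +/+. T cells were 72.0% of filtered fl/fl barcodes and 77.0% of filtered +/+ barcodes. The members held 2840258 counts of unique molecular identifiers (UMIs) in fl/fl and 1607400 in +/+, with medians of 4326 and 4812 UMIs and of 1740.5 and 1958 genes per cell. Their UMI totals ran from 1916 to 57046 in fl/fl and from 1650 to 46691 in +/+. Median mitochondrial shares were 3.49% and 4.28%. The libraries shared 15 barcodes, none of them a member of either.

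The gate was shallow at Fcer2a. In fl/fl, 254 members had 1 Fcer2a UMI, 118 had 2, 53 had 3 and 53 had more. In +/+ the numbers were 108, 53, 34 and 50, and the highest counts in a cell were 8 in fl/fl and 11 in +/+. The Cd79 condition lay far from most members, whose median was 15 counts in fl/fl and 17 in +/+, with 11 and 2 members at 4 or 5 counts. Just outside, 2 fl/fl barcodes and 1 +/+ barcode failed only by having 2 or 3 Cd79 counts, and 3 and 2 failed only by Jchain. A larger number, 55 in fl/fl and 34 in +/+, met every other condition but had 2 or more Cd3 counts, and 25 and 10 members had 1. Of T cells (2 or more Cd3 counts and no Cd79 count), 0.145% in fl/fl and 0.133% in +/+ had an Fcer2a UMI. Because that class allows no Cd79 count, low B cell counts in it are partly set by its gate. Since depth decides whether a cell shows a UMI, the same gate was applied to cells thinned to 2000 UMIs, which kept 250 members in fl/fl and 123 in +/+.

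Markers outside the rule, set here against T cells, were those of the B lineage. This comparison does not tell follicular from other B cells. Levels are given as CPM, the count of a gene divided by all counts of the summed cells of a class and scaled to the same total for every class. Ighd, the IgD heavy chain and the only listed marker the rule did not use, was at 623.2 CPM in fl/fl members and 606.6 in +/+ members, against 1.24 and 2.31 in T cells. The pan-B genes Pax5 (553.5 and 624.0 CPM), the receptor adaptor Blnk (496.8 and 546.2) and Ebf1 (3019 and 3639) were all below 2 CPM in T cells of either library. The T cell gate, which allows no Cd79 count, partly sets these low values. The 11 T cell markers, among them Cd3 genes that the rule caps, summed to 44.7 CPM in fl/fl members and 41.7 in +/+ members, against 5862 and 6560 CPM in T cells, and Thy1 was at 0 in fl/fl members. The 7 Treg markers summed to 67.95 and 42.9 CPM against 3055 and 3145, and Il2ra was at 0 in +/+ members. The coreceptor Cd4, on which the cells were nominally sorted, had 0.352 CPM in fl/fl members and 1.24 in +/+ members, and 121.9 and 164.5 CPM in T cells.

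**Figure D1:**
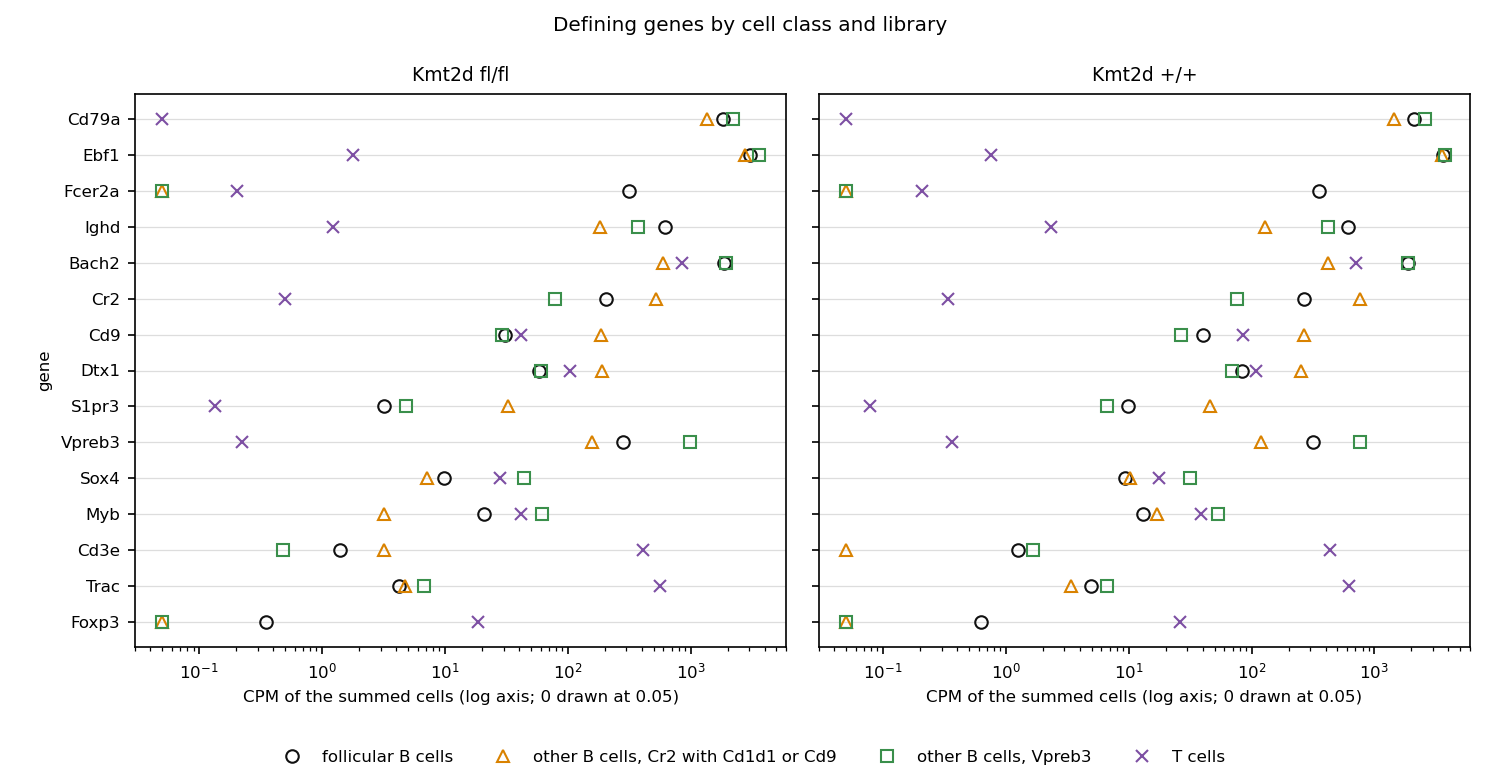
CPM of the summed cells of each class on a log axis, with the fl/fl library on the left and the +/+ library on the right. Circles are follicular B cells, triangles and squares are other B cells gated on Cr2 with Cd1d1 or Cd9 and on Vpreb3, crosses are T cells, and a value of 0 is drawn at 0.05. Ighd in follicular B cells (623.2 CPM in fl/fl and 606.6 in +/+) stands above both other B cell gates. It was not past 1.5-fold in both libraries against the Vpreb3 gate. Trac and Foxp3 are high in the T cells alone of the 4 classes drawn. Cd79a, Fcer2a, Cd3e, Cr2, Cd9 and Vpreb3 were used by the gates, so their separation is no finding.

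Immunoglobulin transcripts varied from cell to cell. Igkc, the kappa light chain constant gene, had a median of 32 UMIs per cell in fl/fl members (5th to 95th percentile 4 to 89.3) and 37 in +/+ members (9 to 118.8). The lambda constant genes Iglc1, Iglc2 and Iglc3, which were summed, had medians of 15 and 16 UMIs per cell. Ighm, the IgM heavy chain, had medians of 10 and 12 UMIs and Ighd of 3 and 3. Kappa counts were at least 4 times lambda counts in 105 fl/fl members (22.0%, interval 18.3 to 25.95) and 65 +/+ members (26.5%, 21.1 to 32.5). The reverse held in 32 (6.69%) and 14 (5.71%), so that 341 fl/fl members (71.3%) and 166 +/+ members (67.8%) had the chains within 4-fold of each other. T cells, a class that should lack these chains, had medians of 0 Igkc and 0 lambda UMIs in either library. The T cell gate left out barcodes with a Cd79 count, so these medians do not measure stray B cell RNA in members. Ighm lacked a UMI in 53.9% of fl/fl T cells and 49.6% of +/+ T cells, against 1.46% and 2.45% of members. Variable segments were rarely counted. A kappa variable segment had at least 2 UMIs in 41 fl/fl members, spread over 21 segments with Igkv1-117 in 6 cells, and in 28 +/+ members, spread over 14 segments with Igkv1-110 in 6 cells.

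Ighd was missing less often from members than from the other B cells (Fcer2a at 0, all other conditions alike). No Ighd UMI was found in 60 of 478 fl/fl members (12.6%, interval 9.72 to 15.9) and in 251 of 770 other fl/fl B cells (32.6%, 29.3 to 36.0). In +/+ it was missing from 32 of 245 members (13.1%, 9.11 to 17.9) and from 95 of 260 other B cells (36.5%, 30.7 to 42.7). Median depth was alike, 4326 UMIs in members and 4388 in other B cells of fl/fl, and 4812 and 4987 in +/+.

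Follicular B cells were then set against the other B cells within each library. A gene counted as past the rule of size when its CPM ratio was at least 1.5 the same way in both libraries with both counting intervals excluding 1, among genes of at least 20 CPM. Of 5884 genes, 33 were higher in follicular cells (0.561%) and 84 were lower (1.43%). The gate chose the cells from their own counts, so this is a description and not a test. Higher genes included Ighd (623.2 CPM in members and 356.5 in other B cells of fl/fl, 606.6 and 290.3 in +/+), the inducible costimulator ligand Icosl (45.1 and 25.4, 52.3 and 28.5) and Satb1, a chromatin organiser (487.3 and 276.9, 560.5 and 281.2). The Ras activator Rasgrp3 had 167.6 CPM in fl/fl members against 96.2 in other B cells, and 185.4 against 107.8 in +/+. Lower genes included S100a4, a calcium-binding protein (2.47 and 28.4 CPM in fl/fl, 2.49 and 45.1 in +/+), the scavenging chemokine receptor Ackr3 (10.6 and 49.99, 11.8 and 67.3) and Bhlhe41, a regulator of B-1 cells (19.0 and 37.9, 30.5 and 73.6).

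The other B cells are a mixture, so 2 kinds were taken from them. The marginal zone-like gate (Cr2 and Cd1d1 or Cd9 detected) held 120 fl/fl and 59 +/+ cells and was deeper, with medians of 8718.5 and 9438 UMIs. Members differed more from these cells: 191 of 5952 genes were higher in follicular cells (3.21%) and 198 were lower (3.33%). All 7 measured marginal zone markers were lower in follicular cells. Of these Cr2, Cd1d1 and Cd9 belong to the gate. The others were S1pr3, the receptor that holds marginal zone cells in place (3.17 CPM in members and 32.6 in the gate of fl/fl, 9.95 and 45.65 in +/+), Dtx1, a Notch target (58.1 and 189.1, 83.99 and 251.9), Pik3r4 (log2 ratio -1.94 in fl/fl and -1.98 in +/+) and Cd36. Ackr3, which was in no list, had 10.6 against 143.0 CPM in fl/fl and 11.8 against 160.6 in +/+. Dnase1l3, a secreted nuclease, had 10.6 against 72.3 and 16.8 against 155.6 CPM.

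Several transcription and trafficking genes were on the other side. Bach2, a repressor that holds back plasma cell differentiation, was at 1859 CPM in fl/fl members and 596.0 in the fl/fl marginal zone-like gate, and at 1859.5 and 419.3 in +/+. Foxo1 and Bcl6 were also past 1.5-fold, with Bcl6, the germinal centre repressor, at 110.2 against 52.45 CPM in fl/fl and 108.2 against 54.1 in +/+. Ccr7, which guides cells toward the T zone, had 141.2 against 57.2 CPM in fl/fl and 130.0 against 55.8 in +/+. Cd55, the complement decay factor, had 337.3 against 105.7 and 385.7 against 123.4 CPM. Myc was lower in follicular cells (124.3 against 278.1 in fl/fl, 130.6 against 356.8 in +/+), and so was the costimulator Cd86 (357.0 against 576.1, 363.9 against 629.0). Values were on the same side in both libraries for every gene named here, as the rule requires.

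The Vpreb3 gate (other B cells with Vpreb3 detected and outside the marginal zone-like gate) held 400 fl/fl and 120 +/+ cells with medians of 3712 and 3987 UMIs. Vpreb3 is a chaperone-like gene of immature B cells. Against this gate 55 of 5873 genes were higher in follicular cells (0.936%) and 67 were lower (1.14%). Among transitional markers outside the gate, Sox4 had 9.86 CPM in fl/fl members against 44.0 in the gate and 9.33 against 31.5 in +/+, and Myb, a progenitor transcription factor, had 20.8 against 61.5 and 13.1 against 53.05. Cd24a did not pass (262.7 against 514.9 CPM in fl/fl, 294.3 against 431.0 in +/+). Ighd did not pass against this gate either. Of the 3 follicular B markers 1 was higher in members, Fcer2a, which the gates used. Higher in follicular cells were Gpr174, a lysophosphatidylserine receptor (76.75 against 25.2 CPM in fl/fl, 77.8 against 21.55 in +/+), the chemokine receptor Ccr6 (73.2 against 25.2, 92.1 against 44.8) and Stat4 (146.5 against 48.4, 215.9 against 99.5).

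**Figure D2:**
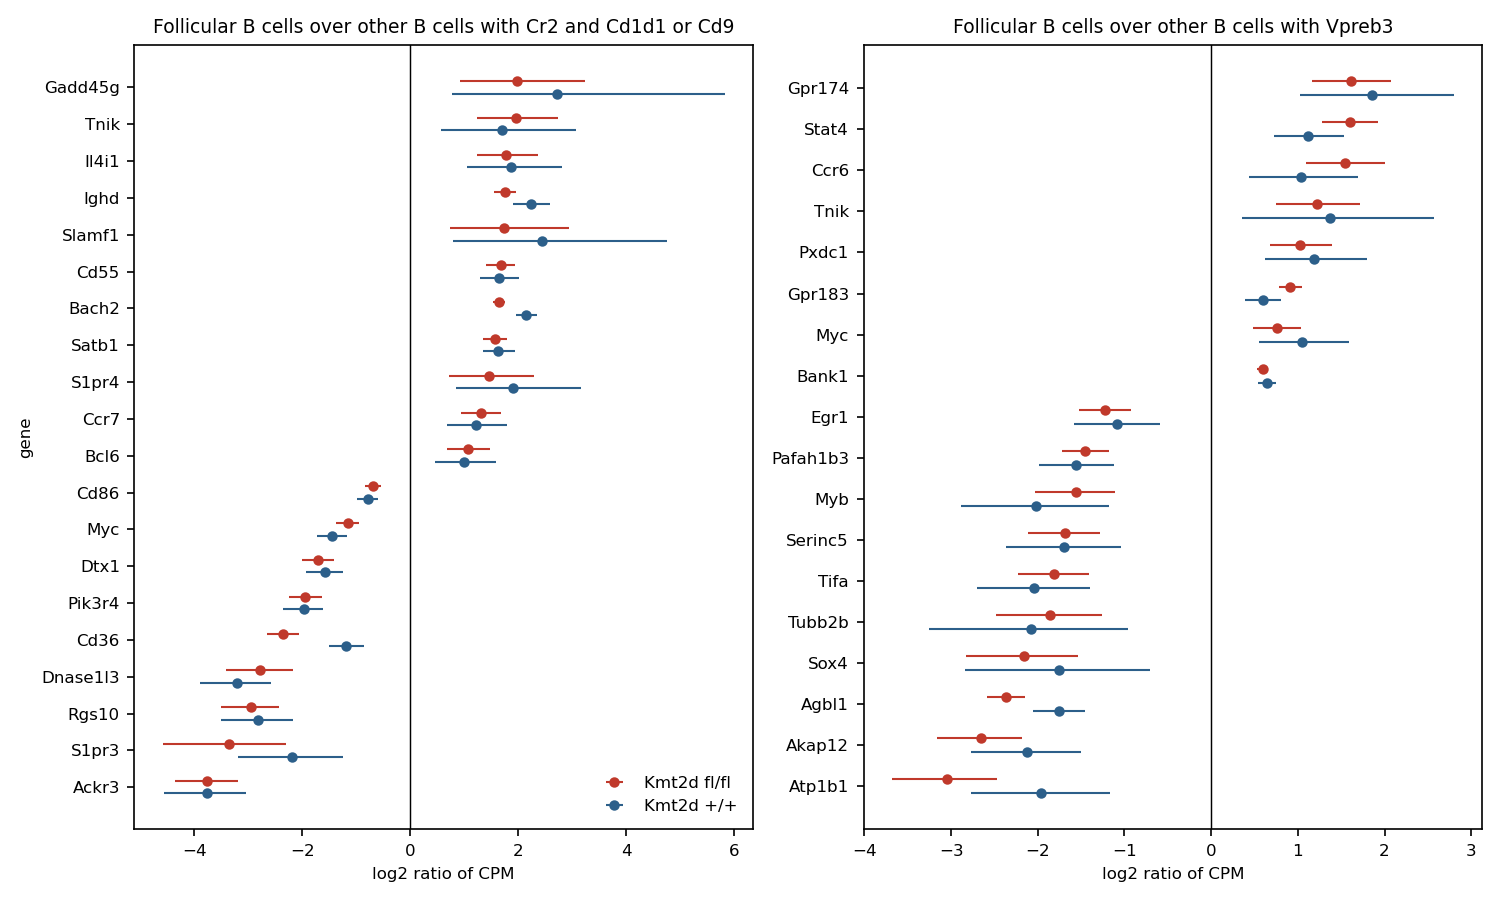
The log2 ratio of CPM, follicular B cells over the marginal zone-like gate on the left and over the Vpreb3 gate on the right, for genes chosen after their values were seen from those past 1.5-fold in both libraries; fl/fl points are above +/+ points and bars are 95% counting intervals. Bach2 lies at 1.64 in fl/fl and 2.15 in +/+ over the marginal zone-like gate, and Sox4 at -2.16 and -1.75 over the Vpreb3 gate.

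The comparison of genotypes used the summed counts of the members of each library. Of 6167 genes reaching 20 CPM in one library or the other, 382 were past the rule of size (6.19%). Of these 133 were at least 1.5-fold higher in fl/fl with a counting interval excluding 1 (2.16%) and 249 were at least 1.5-fold lower (4.04%). No test stands behind these numbers, which count sizes only. Over all measured genes the log2 ratios had a median of -0.08. Another scaling, which sets the median gene-wise ratio to 1, moved that median by 0.10 and gave 244 higher and 149 lower genes, so that lower genes made up 37.9% of those past the rule, against 65.2% with total counts. Ribosomal protein genes moved with this: they summed to 255705 CPM in fl/fl members and 222647 CPM in +/+ members, and to 297601 and 260407 CPM in T cells; their part in the shift was not tested. T cells of the same libraries had 66 higher and 300 lower genes of 6092. With 1 library per genotype, differences between genotypes and between libraries cannot be told apart.

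Of the genes of antigen recognition, none of 24 B cell receptor signalling genes was past 1.5-fold, against 6.19% of all measured genes. Their median log2 ratio was -0.21, and 3 of the 24 had a positive one. Cd79a and Cd79b, which the rule used, are in this list. Bank1, a receptor adaptor, had 2191 CPM in fl/fl and 2580 in +/+, the kinase Lyn 851.0 and 984.8, and the kinase Syk 604.2 and 821.8 (log2 ratio -0.44, interval -0.55 to -0.34). None of 23 B lineage transcription factors was past it either, with a median of -0.11. Mef2c had 2026 and 2029 CPM and Bach2 1859 and 1859.5. Of 15 measured genes of MHC class II and T cell help, 0 were past it (median -0.15). Cd74, the invariant chain, was the highest of them at 7172 CPM in fl/fl and 8370 in +/+ (log2 ratio -0.22, interval -0.25 to -0.19), and H2-Eb1 had 3005 and 2836 CPM.

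Among receptors for survival, inhibition and position, 2 genes were past the rule, a share near the 6.19% of all measured genes. None of 11 measured BAFF receptor and survival genes was past it, among them Tnfrsf13c, the BAFF receptor (279.2 CPM in fl/fl and 236.4 in +/+), and Traf3, its inhibitory adaptor (172.5 and 242.0). Of 9 inhibitory coreceptors and phosphatases 1 was lower in fl/fl, Pirb, an inhibitory MHC class I receptor, at 13.7 CPM in fl/fl and 28.6 in +/+ (log2 ratio -1.06, interval -1.71 to -0.41). Cd22, the sialic acid-binding inhibitor, had 164.1 and 196.6 CPM. Of 15 follicle homing and egress genes 1 was lower, the integrin chain Itgb7, at 39.4 CPM in fl/fl and 60.35 in +/+, and it was also lower in T cells (129.9 and 204.5 CPM). Its log2 ratio in members was -0.61, and -0.52, short of 1.5-fold, with the median gene-wise ratio set to 1. Cxcr5 had 116.9 and 151.2 CPM and the egress receptor S1pr1 177.1 and 142.5. None of 9 IgE, complement and Fc receptor genes (with Fcer2a, which the rule used), 7 Toll-like receptor pathway genes and 21 immediate-early genes was past the rule, with medians of -0.19, -0.19 and -0.07. Fos had 497.1 CPM in fl/fl and 644.5 in +/+.

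Most measured genes of the interferon response list stood higher in fl/fl follicular cells. Of 15 measured, 5 were past the rule in that direction, against 2.16% of all measured genes, and 0 in the other, while 14 had a positive log2 ratio, with a median of 0.51 against -0.08 for all genes. Ly6a, the Sca-1 surface antigen, had 537.3 CPM in fl/fl and 342.2 in +/+ (log2 ratio 0.65, interval 0.51 to 0.79), in 352 of 478 and 155 of 245 cells. Irf7, a master factor of the type I response, had 21.1 and 9.95 CPM (1.09, interval 0.27 to 1.98). Xaf1 and Rtp4 were also past the rule, at 29.6 and 24.3 CPM in fl/fl and 14.9 and 13.7 in +/+. Irf7, Xaf1 and Rtp4 reached the floor of 20 CPM in fl/fl alone. They entered the 15 only through the library where they were high, so the counts of 5 and 14 and the median of 0.51 are a description. Ifi27l2a had 918.2 and 642.7 CPM, a log2 ratio of 0.51 that did not reach 1.5-fold. Ly6e, the highest of the list, was the 1 member below 0, at 973.5 CPM in fl/fl and 1056 in +/+. Iigp1, an interferon-induced GTPase, was below 20 CPM in each library and is outside these counts, with 16.2 CPM in fl/fl and 0.622 in +/+. Ifi208, an interferon-inducible family member outside the list, was past the rule the other way, at 1.76 CPM in fl/fl and 26.75 in +/+.

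The other B cells and T cells of the same libraries gave other values for this list. In other B cells 0 of 18 measured members were higher in fl/fl and 2 were lower, with a median of 0.03. No share over all genes is given here for other B cells to set beside these counts. Ly6a had 498.0 CPM in fl/fl and 512.2 in +/+ there. In T cells 1 of 25 was higher and 0 were lower, with a median of 0.01, and Ly6a had 191.9 and 192.6 CPM. The difference between cell classes was not tested. The follicular median was between 0.34 and 0.61 under the alternatives, the lowest with a floor of 50 CPM and the highest with scaling by gene-wise ratios.

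**Figure D3:**
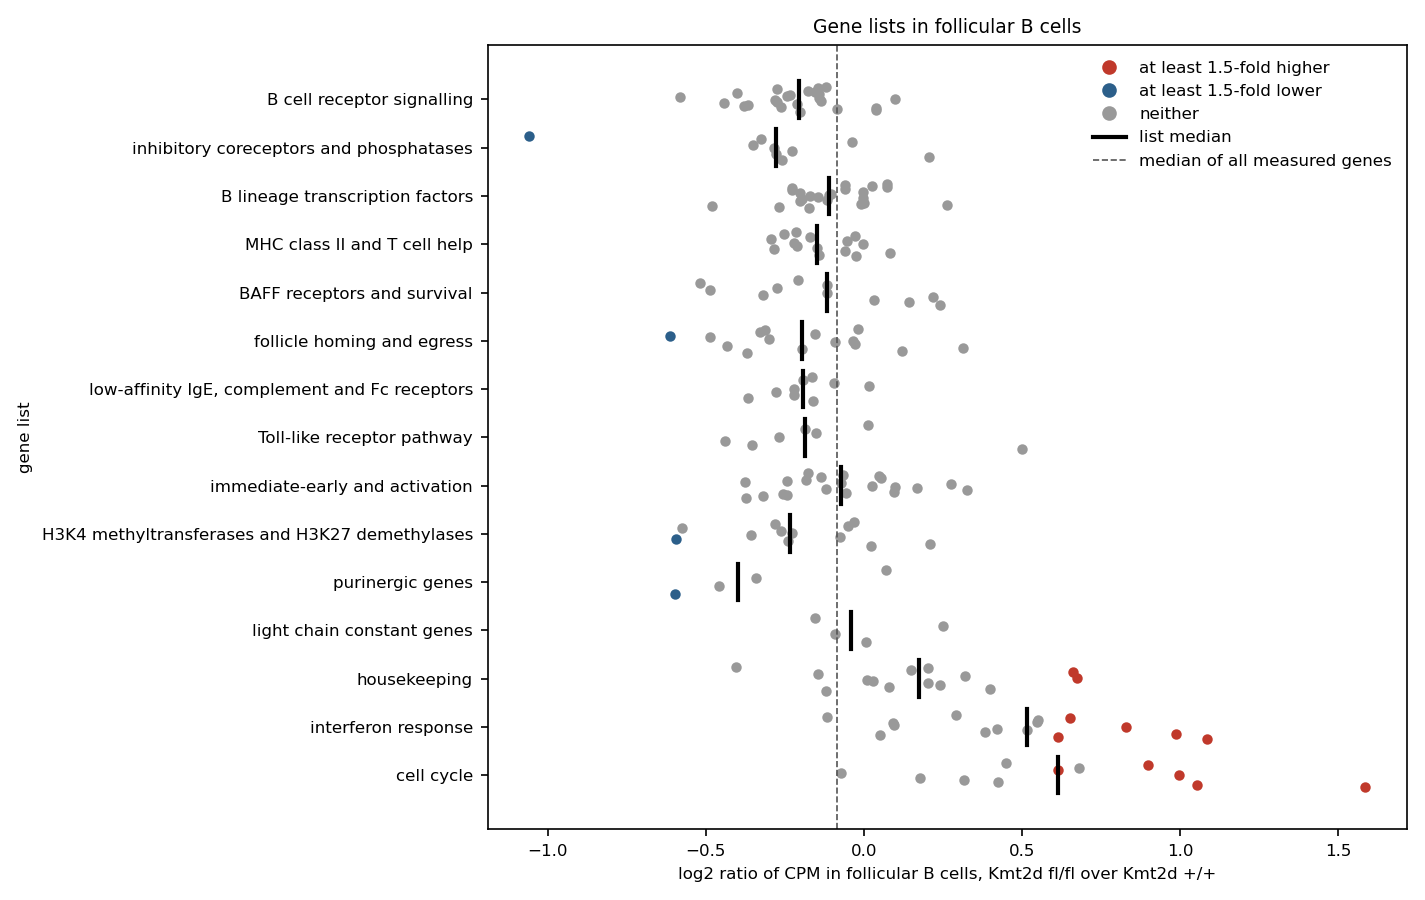
The log2 ratio of CPM in follicular B cells, fl/fl over +/+, for each measured member of 15 gene lists. Points are genes, red and blue those at least 1.5-fold higher and lower in fl/fl, thick lines list medians, and the dashed line the median of all 6167 measured genes at -0.08; the interferon and cell cycle lists have medians of 0.51 and 0.62.

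Cell cycle genes were higher in fl/fl as well. Of 11 measured, 5 were past the rule upward (Mki67, Top2a, Stmn1, Mcm3 and Mcm6), against 2.16% of all measured genes, and 0 downward, with a median of 0.62. Mki67, a nuclear protein of dividing cells, had 42.95 CPM in fl/fl and 14.3 in +/+, and was found in 18 of 478 and 8 of 245 cells. Of the 12 genes with the highest ratios, Ube2c, Cdca3, Cks1b, Mki67, Spc24, Kif23 and Kif11 serve mitosis or the cell cycle. These were picked by the same ratios. Each reached the floor of 20 CPM in fl/fl alone, with 6.22 (Cdca3) to 14.9 CPM (Cks1b) in +/+, so they add no separate evidence. A gate of 3 or more UMIs of Mki67, Top2a, Birc5 and Cdk1, chosen after these values were seen, took 20 fl/fl members (4.18%, interval 2.57 to 6.39) and 6 +/+ members (2.45%, 0.904 to 5.25), and the intervals overlap. These cells were deep, with medians of 21752.5 UMIs in fl/fl and 12280 in +/+. Leaving out members above the 95th percentile of UMIs brought the list median to -0.02. Other B cells had 7 of 12 measured cell cycle genes higher in fl/fl, with a median of 1.04. The share over all genes is not given here for other B cells, so that count has no background beside it. T cells had 2 of 11 higher, against 66 of 6092 of all their measured genes, with a median of 0.33.

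Germinal centre genes were read from the same small set. Rgs13, a regulator of G protein signalling in germinal centre B cells, had 25.7 CPM in fl/fl (73 counts in 21 cells, 22 of them in 1 cell) and 6.22 in +/+ (10 counts in 7 cells). It was the only 1 of 4 measured genes of its list past the rule, and it reached the floor of 20 CPM in fl/fl alone. Of all measured genes, 6.19% were past the rule. Bcl6 had 110.2 and 108.2 CPM. A gate of 3 or more UMIs of Rgs13, S1pr2, Mybl1, Gcsam and Mef2b, also chosen after values were seen, took 12 fl/fl members (2.51%, interval 1.30 to 4.34) and 1 +/+ member (0.408%, 0.0103 to 2.25). Of these, 9 and 1 were also in the cycling gate. Other B cells in the gate were 16 of 770 in fl/fl (2.08%) and 4 of 260 in +/+ (1.54%), and T cells 0.0804% and 0.0834%.

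Within fl/fl, the 12 gated members could be set beside the other 466. Ighd was at 77.9 CPM in the gated cells and 674.4 in the rest, Ccr7 at 28.7 and 151.7, and the oxysterol receptor Gpr183 at 114.8 and 626.6. Fas, the death receptor of activated and germinal centre B cells, was at 82.0 CPM in the gated cells and 10.01 in the rest. The gated cells had a median of 18764.5 UMIs, against 4326 for all members, and depth was not matched in this comparison. None of these genes was part of the germinal centre gate.

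Heavy chain switching was rare in the members. More than 2 UMIs of Ighg, Igha or Ighe genes, exceeding those of Ighm, were seen in 6 fl/fl members (1.26%, interval 0.462 to 2.71) and 7 +/+ members (2.86%, 1.16 to 5.80). The differences in single constant genes rested on few cells. Ighg2c had 70.1 CPM in fl/fl and 5.60 in +/+, and 139 of its 199 fl/fl counts lay in 1 cell. Igha had 5.99 and 43.55 CPM, and 55 of its 70 +/+ counts lay in 1 cell. Ighg1 had 0 counts in fl/fl and 39 in +/+, and 23 of the 39 lay in 1 cell. Set against a floor of 3 counts over the fl/fl members, this is 22.97-fold lower, a value that leaves out counting error in +/+. The counting interval of the Ighg1 log2 ratio ends at -4.16.

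**Figure D4:**
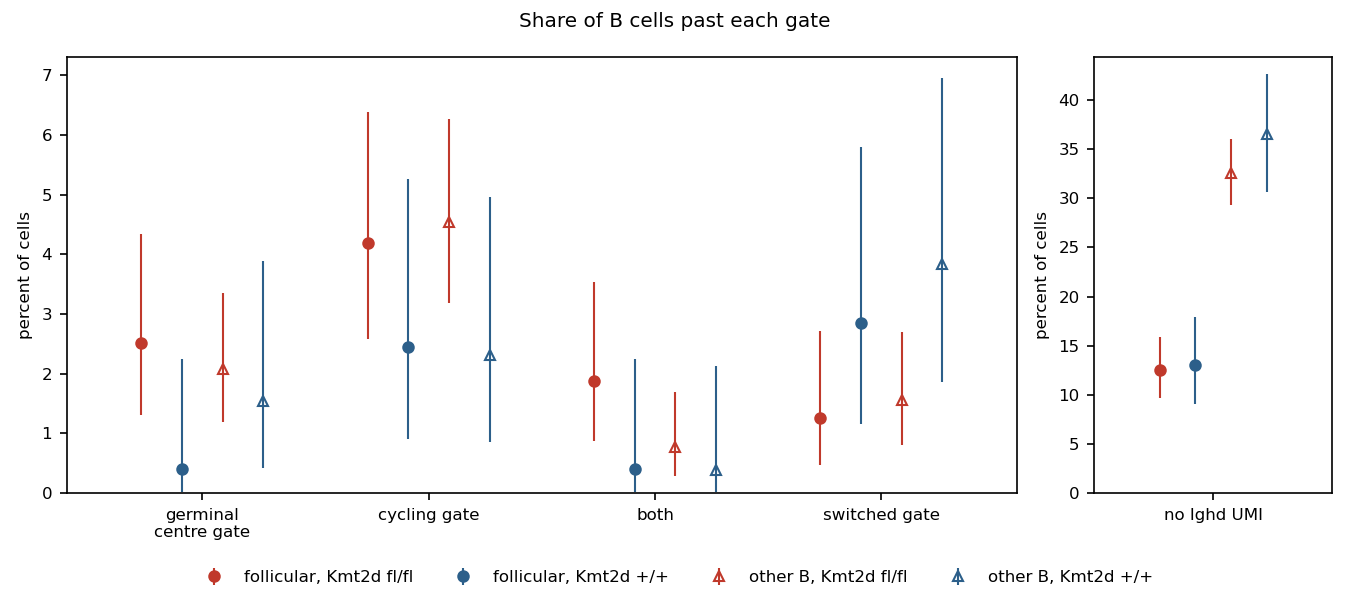
Percent of cells past each gate, with 95% exact binomial intervals, in follicular B cells (filled circles) and other B cells (open triangles), fl/fl in red left of +/+ in blue; the axis of the right panel is its own. The germinal centre gate took 2.51% of fl/fl and 0.408% of +/+ follicular cells, and 12.6% and 13.1% of follicular cells lacked an Ighd UMI.

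The lowest ratios rested on 2 cells of the +/+ library. A single +/+ member of 5503 UMIs held 406 of the 407 Hbb-bs counts, all 249 Hba-a1 counts and 210 of the 211 Hba-a2 counts, which encode globins, with 9 Cd79 counts and 1 Fcer2a count beside them. The fl/fl members held 2, 1 and 0 counts of these genes. For Hba-a2 the floor makes fl/fl 124.3-fold lower, a value that leaves out counting error in +/+. The counting interval of the Hba-a2 log2 ratio ends at -6.65. A second +/+ member of 14893 UMIs held 581 of 592 S100a8 counts, 802 of 834 S100a9 counts, 134 of 139 Camp counts, 66 of 68 Retnlg counts and 44 of 46 Lcn2 counts, all genes of neutrophils, beside 16 Cd79 counts. The fl/fl members held 9 S100a8 and 16 S100a9 counts. Among T cells S100a8 was at 111.0 CPM in fl/fl and 602.7 in +/+. The other genes of the 12 lowest ratios were Apobec3, Ifi208, Parm1 and Mical3. Ifi208, an interferon-inducible family member, had 1.76 CPM in fl/fl and 26.75 in +/+, in 5 and 33 cells, while Parm1 was found in 2 cells of each library and 19 of its 33 +/+ counts lay in 1 of them. Over all 382 genes past the rule, 16 had more than 50% of the counts of their higher library in 1 cell. When the top cell of each gene was left out of each library, 118 of the 133 higher and 175 of the 249 lower genes were still past the rule. Few markers of other cell types reached 20 CPM in the members. All 5 measured neutrophil markers and all 4 erythroid and platelet markers were lower in fl/fl. So were Lyz2 of the monocyte list and Ccl5 of the CD8 and NK list. Of all measured genes 4.04% were lower. The neutrophil markers reached 20 CPM in +/+ alone. The +/+ member with the S100a8 counts also held 93 of 96 Ngp, 58 of 81 Lyz2 and 39 of 45 Ccl5 counts. The +/+ member with the globin counts held 124 of 171 Hbb-bt counts. Most +/+ counts of each of these markers thus lay in those 2 cells. Summed CPM in fl/fl and +/+ members were 15.8 and 1096 for the neutrophil list and 33.1 and 646.4 for the erythroid list. They were 39.4 and 80.9 for the monocyte list, and 11.6 and 32.4 for the CD8 and NK list. Both measured B-1 markers (Bhlhe41 and S100a6) and 1 of 6 marginal zone markers (Cd36) were lower, against the same 4.04% of all measured genes. Single cells weighed on these: 50 of 110 S100a6 counts and 74 of 182 Cd36 counts of +/+ members lay in 1 cell each. Without each gene's top cell the log2 ratio was -0.18 for Bhlhe41 and -0.52 for S100a6, both short of 1.5-fold, and -0.61 for Cd36, against -0.68, -1.18 and -1.17 with it. No transitional or dendritic cell marker was past the rule. The plasma cell list is described without Jchain, which the rule caps: Xbp1 was higher, at 44.4 CPM in fl/fl and 26.75 in +/+, and so was the only measured Treg marker, Ctla4 (36.6 and 23.0). With the upper limit on UMIs the log2 ratio was 0.53 for Xbp1 and 0.48 for Ctla4, short of 1.5-fold. Members with 3 or more UMIs of other lineages' markers were 27 in fl/fl (5.65%, median 15040 UMIs) and 18 in +/+ (7.35%, median 9555.5 UMIs), and no doublet caller was run.

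Some other genes past the rule had counts in more cells of at least 1 library. With a UMI in at least 10% of thinned members of either library, a limit set after values were seen, 20 higher and 48 lower genes remained outside immunoglobulin, T cell receptor, ribosomal, mitochondrial, Xist and Y-linked genes and gene models without a name. A gene could meet this limit through its higher library alone. Thinned shares were 3.1% in fl/fl and 12.3% in +/+ for Cbx7, 2.7% and 12.7% for Slc15a2, and 17.0% and 2.5% for Ly6c2. The limit is thus a description of spread and not support for a difference. Apobec3, a cytidine deaminase that restricts retroviruses (chromosome 15, 79891659 to 79915906 on GRCm38, plus strand), had 26.05 CPM in fl/fl and 373.3 in +/+. Its log2 ratio was -3.84 (interval -4.21 to -3.49), and it was found in 58 of 478 fl/fl and 202 of 245 +/+ members. The same gene had 26.3 and 384.4 CPM in other B cells and 21.3 and 151.4 CPM in T cells. Cbx7, a Polycomb chromobox gene whose annotated span meets the end of Apobec3 on the other strand, had 9.15 CPM in fl/fl and 46.0 in +/+ (-2.33, interval -3.04 to -1.67). Slc15a2, a peptide transporter, had 17.2 and 73.4 CPM, and Rell1 45.1 and 115.1. All 4 had lower CPM in fl/fl than in +/+ in other B cells and T cells too.

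Higher in fl/fl by this reading were Ly6c2, Acadl, Nrip1 and Irf2 first of all. Ly6c2, a Ly6 surface antigen (chromosome 15, 75108158 to 75111970, minus strand), had 138.7 CPM in fl/fl and 22.4 in +/+ (2.63, interval 2.14 to 3.17), in 131 of 478 and 17 of 245 cells. In other B cells it had 107.8 and 53.0 CPM and in T cells 113.5 and 83.3, so the ratios there were smaller. Acadl, a mitochondrial acyl-CoA dehydrogenase (chromosome 1, 66830839 to 66863277, minus strand), had 146.8 and 54.1 CPM (1.44, interval 1.10 to 1.79), in 232 and 60 cells. T cells had it the other way, at 20.5 CPM in fl/fl and 39.9 in +/+. Nrip1, a nuclear receptor corepressor, had 105.3 and 47.9 CPM, and Irf2, an interferon regulatory factor, 517.2 and 298.0. Irf2 was also higher in other B cells of fl/fl (429.0 and 231.6 CPM). Cacna1e, a calcium channel subunit, had 235.9 CPM in fl/fl and 141.8 in +/+ members, but 296.2 and 286.3 CPM in other B cells.

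**Figure D5:**
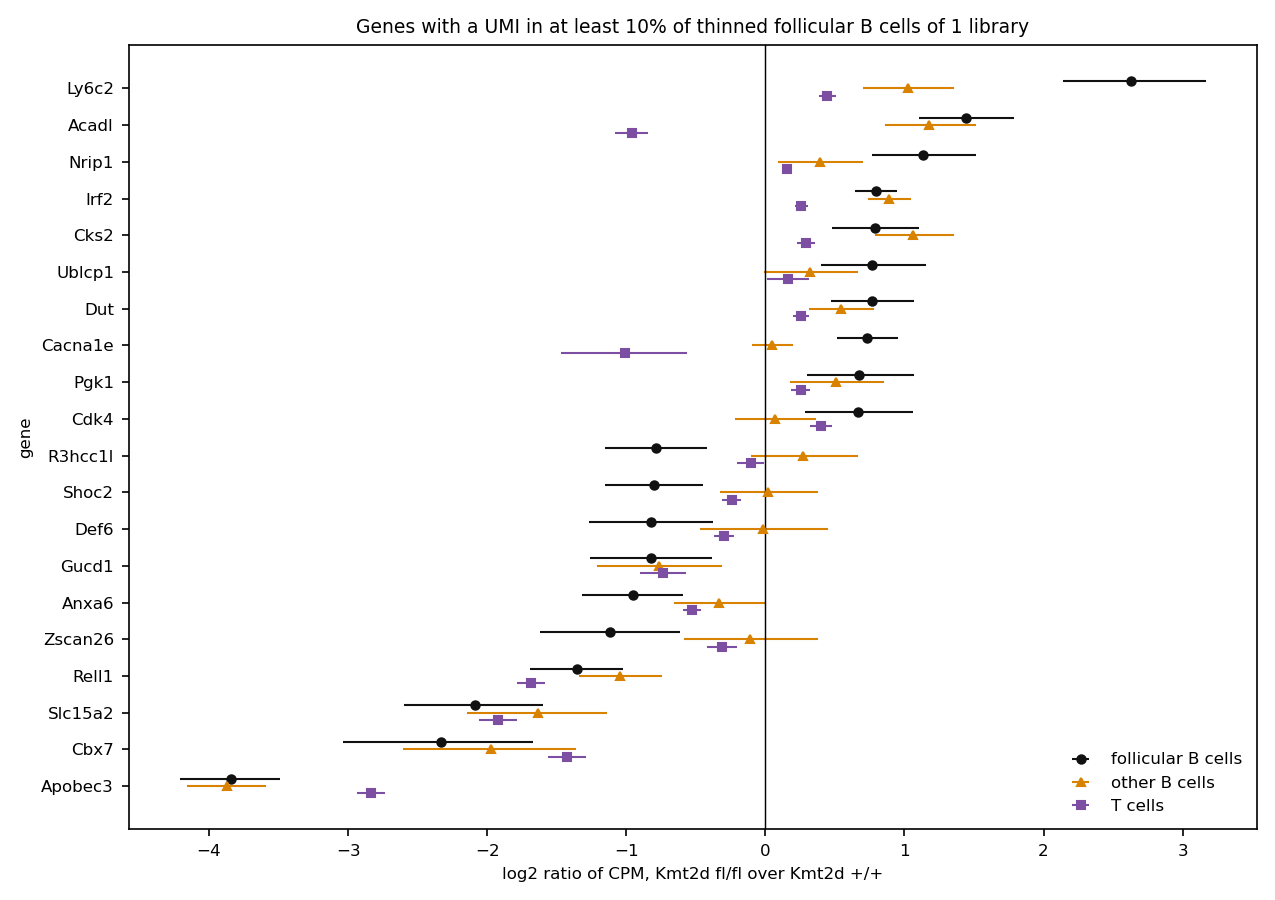
Log2 ratios of CPM (fl/fl divided by +/+) for the 10 highest and 10 lowest genes among those with a UMI in at least 10% of thinned follicular B cells of either library. Circles are follicular B cells, triangles other B cells and squares T cells, with 95% counting intervals; Apobec3 lies at -3.84, -3.87 and -2.83, while Acadl lies at 1.44, 1.18 and -0.96.

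Kmt2d itself (chromosome 15, 98831669 to 98871204, minus strand) had 117 counts in fl/fl members and 100 in +/+ members, or 41.2 and 62.2 CPM. The log2 ratio was -0.59 (interval -0.99 to -0.20), just past 1.5-fold. It was -0.50 with the median gene-wise ratio set to 1 and -0.57 without the top cell of each library, both short of 1.5-fold. In other B cells it had 47.0 and 65.6 CPM and in T cells 65.98 and 72.4 CPM. Counts from the 3' end of the transcript do not show whether an exon was deleted, so these values check neither the genotype nor the sort. The other 11 measured H3K4 methyltransferase and H3K27 demethylase genes were not past the rule, among them Kmt2a (184.5 and 181.7 CPM), Kmt2c (182.4 and 215.3) and Kdm6a (153.5 and 196.6). P2rx7, the ATP-gated channel named in the study's title, was nearly absent from the members, at 2.47 CPM in fl/fl and 1.87 in +/+, against 38.97 and 59.0 CPM in T cells. P2rx4, a related channel, had 44.4 and 67.2 CPM (-0.60, interval -0.98 to -0.21) and was the only 1 of 4 measured purinergic genes past the rule. Of all measured genes, 6.19% were past it. P2rx4 too was short of 1.5-fold in those settings, at -0.50 and -0.56.

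Apobec3, Cbx7, Ly6c2, Ly6a and Kmt2d share a chromosome, so the genes past the rule were counted by chromosome, a count added after values were seen. Immunoglobulin, T cell receptor, ribosomal, mitochondrial, Xist and Y-linked genes and gene models without a name were left out of it. On chromosome 15, 24 of 222 such genes were past it (10.8%), 6 higher and 18 lower in fl/fl, against 331 of 5656 on the other chromosomes (5.85%). Apobec3, Cbx7, Ly6c2, Ly6a and Kmt2d prompted the count and are among these 24, so this share is a description only. Chromosome 16 followed with 19 of 200, and the lowest share was 4.32% on chromosome 18. Measured between the lower coordinates of each gene and of Kmt2d, the 24 genes lay between 73.5 Mb before it (Basp1) and 3.38 Mb after it (Itgb7). Apobec3 and Cbx7 lay 18.9 Mb before it and Ly6c2 23.7 Mb before it. Nearest were Tuba1c, 0.198 Mb after it, and the histone deacetylase Hdac7, 1.04 Mb before it, at 35.9 CPM in fl/fl and 57.9 in +/+. The 14 measured housekeeping genes had a median of 0.18, with Eef1a1 (6377 CPM in fl/fl and 4035 in +/+) and Pgk1 (77.5 and 48.5) past the rule, and Actb (6324 and 6879), B2m (1346 and 1275) and Ywhaz (486.2 and 483.4) not. Of all measured genes, 6.19% were past the rule.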

How the data were processed

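The deposited matrices hold raw UMI counts per gene and barcode for 31253 genes. They were made with Cell Ranger 7.1.0, per the file headers, and the submitters' processing notes also name fastp, Seurat 4.1.1, mm10 and GRCm38; the settings are not given in the sources used here. Libraries were made with a 10x Genomics 3' kit, per the labels' protocols. The files held 8784 barcodes and 63989234 counts for fl/fl, and 7947 barcodes for +/+.

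Per library, the members' counts were added up gene by gene and divided by their total to give CPM, with Python 3.11.15, numpy 2.4.6 and scipy 1.17.1. Ratios have 95% exact conditional binomial intervals and shares 95% exact Clopper-Pearson intervals. The rule of size is a ratio of 1.5 with an interval excluding 1, among genes reaching 20 CPM in one library or the other. Thinning to 2000 UMIs left out 1 member per library. The calling code was run on simulated counts, drawn independently around the members' pooled counts. Such counts hold no clumping in single cells and no variation between mice or libraries, so the run does not bear on the calls given here. Of the gene IDs, 31107 matched GENCODE on GRCm38, which gave the coordinates.

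The members and the 29 gene lists (1 listed gene was not analysed here, and some named genes are not reported here) were chosen with earlier results of these data known. Named genes were those of the rule, Ighd, Kmt2d, P2rx7 and Foxp3, the 12 highest and 12 lowest ratios with the same direction without Cd3 counts and in thinned cells (immunoglobulin, receptor segment, mitochondrial, ribosomal, Xist and Y-linked genes and unnamed gene models left out), the 10 highest and 10 lowest against other B cells, marker genes, and up to 4 members of each list by ratio each way and by CPM. The state gates, chromosome counts, the limit of 10% of thinned cells, the genes named against the marginal zone-like and Vpreb3 gates and any other list member named were chosen after values were seen. No doublets were removed here. Settings tried, 2 of them added after values were seen, concern scaling, floor, fold, gate, depth and left-out cells.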

Additional observations from a re-analysis of the deposited data

Results flagged for a closer look

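Acadl, Ccl5 and Hbb-bs had ratios on opposite sides in follicular B cells and in T cells of the same libraries, and the difference between the cell classes was not tested. Acadl had a log2 ratio of 1.44, fl/fl over +/+, in follicular cells and -0.96 in T cells, and was detected in 232 fl/fl and 60 +/+ members. Ccl5, a chemokine of cytotoxic cells, had -1.73 in follicular cells and 0.98 in T cells, and 39 of its 45 counts in +/+ members lay in 1 cell. Hbb-bs had -8.49 and 5.17, and 406 of its 407 counts in +/+ members lay in 1 cell.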

How the results depend on the processing

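The share of follicular cells was higher in fl/fl than in +/+ under every gate tried: 2.59% and 1.76% with Fcer2a of at least 2, 4.61% and 2.81% with at least 10 Cd79 counts, 5.31% and 2.60% with at most 5% mitochondrial counts, and 2.94% and 1.60% with the gate applied after thinning. Numbers of genes higher and lower in fl/fl were 244 and 149 with the median gene-wise ratio set to 1, 41 and 70 with a floor of 50 CPM, 251 and 472 with no floor, and 35 and 52 with a fold of 2; they were 88 and 253 with an upper limit on UMIs and 80 and 275 without germinal centre or cycling cells, an alternative added after the data were seen. Lower genes made up 74.2% and 77.5% in the last pair, against 65.2%. Against other B cells, 20 genes were higher in follicular cells with the gate after thinning, 19 higher and 28 lower with a floor of 50 CPM, 191 and 198 against the marginal zone-like gate, and 55 higher against the Vpreb3 gate. Some genes changed side. With Fcer2a of at least 2, the log2 ratios were 0.19 for Bhlhe41, 3.09 for Ccl5, -0.27 for Ctla4, 0.035 for Hbb-bt, -1.20 for Jchain, 1.22 for Lyz2, -0.060 for Mcm6 and 0.50 for Ngp. With no Cd3 count they were 1.38 for Ccl5, 0.91 for Lyz2 and 0.66 for Ngp, and without cells holding other lineages' markers 0.86 for Ccl5, 0.70 for Hbb-bt, 1.52 for Ngp and 0.53 for S100a6. With at least 10 Cd79 counts they were 0.24 for Hbb-bs and 0.16 for Hbb-bt, and without each gene's top cell, an added alternative, 1.05 for Ccl5 and 0.59 for Ngp. With the UMI limit they were -0.54 for Mki67, -0.012 for Stmn1 and -0.036 for Top2a, and without germinal centre or cycling cells -0.28 for Mcm6, -1.65 for Mki67, -0.50 for Stmn1 and -1.24 for Ube2c; those gates are made of cell cycle and germinal centre genes. Each of these settings leaves out cells, and no cause beyond that was tested. Of 51 genes followed, 36 kept their sign under every setting that gave a value for them. Those named for the highest and lowest ratios were chosen to keep their direction with no Cd3 count and in thinned cells. Both settings are in this count, so for those genes their outcome was fixed by the choice. The count of 36 is thus a description and not a measure of robustness. No paired analysis was possible because each group has 1 library, and leaving out a replicate was not possible either. Depth limits single genes: a count of 0 over the members allows up to 1.06 CPM in fl/fl and 1.87 CPM in +/+.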
